A study of Mus musculus with 16 samples.

Results

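The comparison described here is the HA immunoprecipitate (IP) of retinas that carried tagged ribosomes against the total RNA of the same lysates. Its members are 4 of the 16 libraries of the series, 2 IPs and 2 inputs, chosen by their labels and paired by lysate, and every gene that passed a filter on low counts was followed, with no gene dropped for its level in untagged IPs. All mice were adults at postnatal day 60 on a mixed B6/129 background. The Rpl22HA group was Opn4-Cre; Rpl22-HA, in which a Cre-dependent allele puts an HA epitope on the ribosomal protein RPL22 in cells that express Cre from *Opn4*. The ctrl group, used beside it, was Opn4-Cre with no HA allele, so both groups carried the Cre allele and both were put through the same HA antibody and protein G beads. Both retinas of an animal were combined into one lysate, a small share of which was kept as input, and the labels describe each library as pooled male and female. How many animals a library holds is unclear from the sources. The other 8 libraries, IPs of Brn3bWT and Brn3bcKO retinas, were not used. The study's methods also give HA label in a small group of cones, and not only in ipRGCs, the cell type written on the IP labels.

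Translating ribosome affinity purification pulls down tagged ribosomes with the mRNA they carry, which gives access to the messages of scarce cells without sorting them. Intrinsically photosensitive retinal ganglion cells (ipRGCs) are ganglion cells that make the photopigment melanopsin, the product of *Opn4*, and drive circadian entrainment and the pupillary light reflex. The rest of the retina is mostly rods, with cones, bipolar, horizontal and amacrine interneurons, Müller glia and small numbers of vascular cells and microglia. A gene is called enriched or depleted below when its IP over input change passed an adjusted p of 0.05 and a log2 fold change of 1, that is 2-fold, in edgeR's quasi-likelihood test with the lysate as a block. Levels are in CPM, a gene's count divided by the scaled library total. They count reads and not molecules, and are compared for one gene between libraries, never between genes.

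The 4 Rpl22HA libraries held between 8465626 and 13573350 counts and the 4 ctrl libraries between 2332612 and 14512132, over transcripts that often share reads. Summed over 4 Y-linked genes, the Rpl22HA libraries held 332 and 370 counts (IPs) and 140 and 135 counts (inputs). The ctrl libraries held 7 counts in the first IP and 0 in the other 3. This goes against the label of pooled sexes for the ctrl libraries. IP and input are compared within lysates and do not differ in this, while sex and the tag cannot be told apart wherever Rpl22HA is set against ctrl. The labelled replicates differed by more than sampling noise, with a chi-square per degree of freedom of 8.2 between the IPs and 2.87 between the inputs, and were counted as 2 samples.

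Of 13394 genes tested, 1815 were enriched in the Rpl22HA IPs over their inputs (13.6%) and 1082 were depleted (8.08%). Counts of called members of a gene list are to be read against these shares. The median log2 fold change over all genes tested was 0.15. The split between the directions rested on how the libraries were scaled, since 62.7% of the calls were enrichments with TMM factors, 56.2% with size factors of the RLE type, 51.4% when the 4 Rpl22HA libraries were scaled and fitted alone, and 44.4% with upper quartile factors, which moved all log2 fold changes by -0.23. Changes near the threshold are therefore read against the median of all genes. The log2 ratios of the 2 lysates correlated across genes with r = 0.87, a description over genes that are not independent replicates, and differed by a median of 0.25. All 2897 called genes had the same sign in both lysates, but they were called from these same lysates, so this is not a separate check. *Rpl22* itself, whose product carries the tag, was at 102 and 109 CPM in the IPs and at 190 and 176 in the inputs, a log2 fold change of -0.79 that did not pass the fold threshold.

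**Figure D1:**
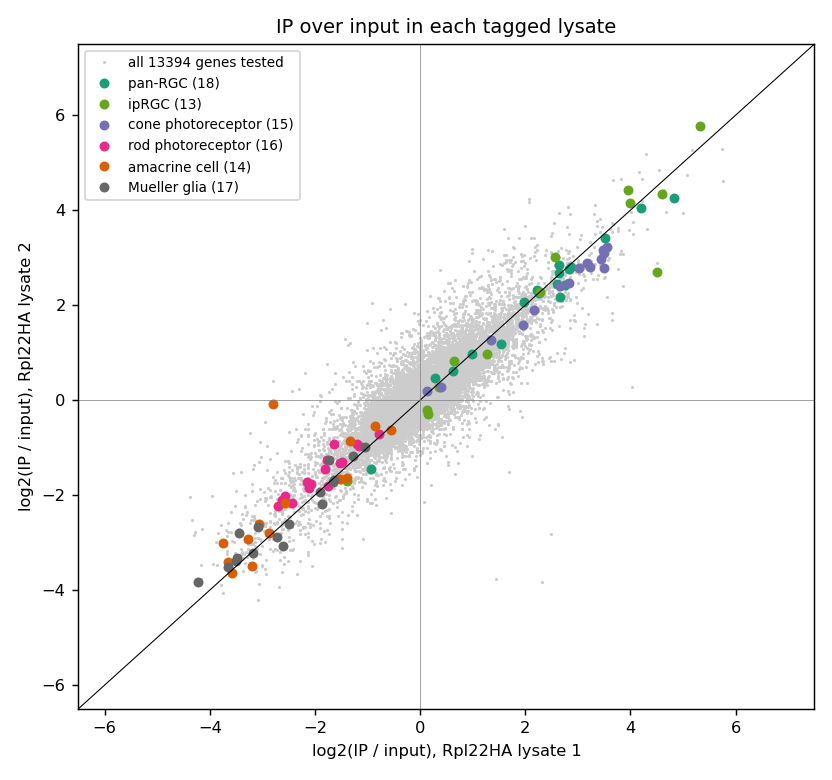
Log2 ratio of IP to input in Rpl22HA lysate 1 (x axis) and lysate 2 (y axis) for all 13394 genes tested (grey points) and for 6 cell type lists (coloured points, with the number of members tested), and the line of equal ratios. Most ganglion cell and cone genes lie at the upper right, and most rod, amacrine and Müller glia genes at the lower left.

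The defining genes of ipRGCs were among the most enriched. *Opn4*, which encodes melanopsin (chromosome 14, 34590618 to 34599958, minus strand, mm10), was at 69.6 and 71.9 CPM in the Rpl22HA IPs and at 2.45 and 3.11 CPM in the inputs. Both IPs stood above both inputs, with a log2 fold change of 4.65 ± 0.27 (edgeR adjusted p = 2.7e-09). Here and below, the value after ± is an approximate SE. It is the log2 fold change divided by the square root of the F statistic of edgeR's test. It may be too small for large changes of genes with few counts in the inputs. The ctrl IPs, with no tag, held *Opn4* at 2.95 and 12.4 CPM and their inputs at 1.81 and 3.78 CPM, so both untagged IPs were also above their inputs, and the gene was called enriched there by 1.57. The difference between the tagged and the untagged fold change was 3.08 on the log2 scale (adjusted p = 0.00034). *Tbx20*, a T-box transcription factor gene, had the largest fold change among genes with a mean count of at least 50 and no overlap between IPs and inputs. It was at 56.5 and 62.9 CPM in the IPs against 0.982 and 0.718 CPM in the inputs, a log2 fold change of 6.09 ± 0.34, and at 0.631 and 0.907 CPM in the ctrl IPs. *Eomes*, the T-box factor that marks ipRGCs, was at 111 and 101 CPM in the IPs and at 6.63 and 5.26 CPM in the inputs. Its untagged IPs were below their own inputs, at 2.10 and 2.72 CPM against 4.52 and 5.94 CPM.

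Of 15 genes listed for ipRGCs, 13 passed the count filter, 8 were enriched and 1 was depleted, beside the 13.6% and 8.08% of all genes tested. *Irx1*, an Iroquois homeobox gene, was at 17.7 and 14.0 CPM in the IPs and under 1 CPM in both inputs, with a log2 fold change of 4.96 ± 0.65. *Adcyap1*, which encodes PACAP, the neuropeptide that ipRGCs release at their targets, was at 12.3 and 10.8 CPM against 1.72 and 0.957 CPM. The calcium-dependent lipid-binding gene *Anxa2* rose from 20.1 and 19.4 CPM to 99.4 and 95.6 CPM. *Zic1* was the depleted member, at 3.03 and 2.35 CPM in the IPs and 8.59 and 8.61 CPM in the inputs, a call that was lost whenever either Rpl22HA lysate was left out. With a mean count of at least 50 required, 5 members were enriched. The tagged fold change was higher than the untagged one for 7 of the 13 members.

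Melanopsin signals through Gq-class G proteins, phospholipase C and TRPC channels. Among 20 genes listed for this cascade, 15 were tested, 5 were enriched and 2 depleted, and the median log2 fold change was 0.17, close to that of all genes. *Rgs4*, an inhibitor of Gq and Gi signalling, was at 1272 and 1254 CPM in the IPs and at 69.0 and 75.6 CPM in the inputs, while *Rgs8*, a relative, fell to 34.0 and 50.9 CPM from 186 and 180 CPM. The phospholipase C genes parted, with *Plcb1* at 28.1 and 25.4 CPM against 5.64 and 7.42 CPM, and *Plcb3*, the other depleted member, at 2.02 and 1.26 CPM against 5.40 and 5.26 CPM, a call that was lost without either Rpl22HA lysate. *Arrb1*, a beta-arrestin gene, rose by 1.43 ± 0.15 on the log2 scale. *Trpc7*, a TRPC channel gene of ipRGCs, stayed near the limit of counting at 3.03 and 1.88 CPM in the IPs against 2.70 and 2.39 CPM in the inputs (log2 fold change -0.07 ± 0.56, adjusted p = 0.93). *Plcb4*, the phospholipase C gene of the cascade, was at 165 and 143 CPM against 106 and 81.1 CPM, under the fold threshold, and its untagged IPs reached 146 and 152 CPM.

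Genes listed for ganglion cells in general followed. All 18 genes of the pan-RGC list were tested, and 14 were enriched and 1 depleted, with a median log2 fold change of 2.47. Summed over the list the level was 11234 and 10633 CPM in the Rpl22HA IPs, 1824 and 1736 CPM in their inputs, and 1290 and 1508 CPM in the ctrl IPs. *Pou4f2*, which encodes the POU homeodomain factor BRN3B, was at 74.8 and 85.1 CPM in the IPs and at 2.21 and 4.07 CPM in the inputs (log2 fold change 4.66 ± 0.28), and without the tag it was at 3.16 and 7.71 CPM against 2.71 and 2.43 CPM, an enrichment of 1.34. *Rbpms*, the RNA-binding protein gene used to label all ganglion cells, was at 217 and 229 CPM against 30.2 and 33.5 CPM, a smaller log2 fold change of 2.81 ± 0.17. *Sncg*, which encodes gamma-synuclein, rose by 3.47 ± 0.17 and the neurofilament gene *Nefh* by 2.86 ± 0.17 on the log2 scale. The depleted member was *Pou4f3*, which encodes BRN3C and marks other ganglion cell types, at 2.35 and 2.35 CPM against 4.91 and 7.18 CPM, and its call was lost without either Rpl22HA lysate. The LIM homeodomain gene *Isl1*, which bipolar and amacrine cells also use, was at 106 and 112 CPM against 86.4 and 80.6 CPM. Fewer cells of a type and less RNA per cell cannot be told apart in these bulk libraries.

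**Figure D2:**
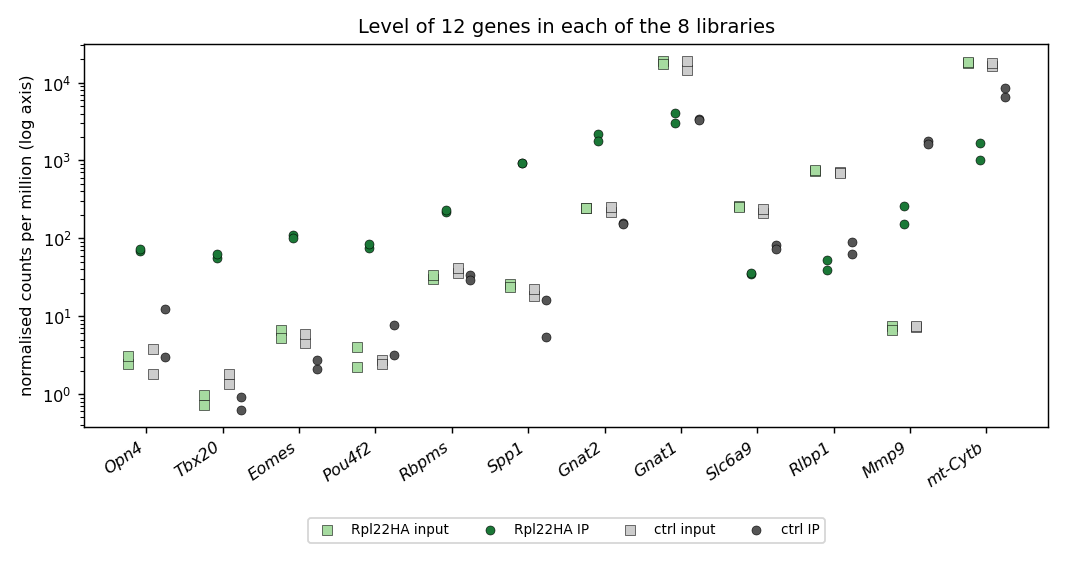
Level in CPM on a log axis for 12 genes in each of the 8 libraries, with squares for inputs and circles for IPs, green for Rpl22HA and grey for ctrl, and 2 points per group. The Rpl22HA IPs stand above all inputs for the ipRGC, ganglion cell and cone genes and below them for *Gnat1*, *Slc6a9*, *Rlbp1* and *mt-Cytb*, and *Mmp9* is highest in the ctrl IPs.

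The 10 largest enrichments under the same rule were *Tbx20*, *Tmem255b*, *Ctxn3*, *Spp1*, *Calca*, *1700011I03Rik*, *Prph*, *Tnni3*, *Mmp9* and *Hapln1*, with log2 fold changes from 6.09 down to 4.81. *Ctxn3*, a cortexin gene, was at 1097 and 956 CPM in the IPs and at 20.1 and 24.2 CPM in the inputs. *Spp1*, which encodes osteopontin and marks alpha ganglion cells, was at 939 and 927 CPM against 25.5 and 23.7 CPM. The alpha ganglion cell list as a whole was split, with 3 enriched and 2 depleted of 6 tested, and *Tpbg* on it was at 2.69 and 2.98 CPM against 18.9 and 19.9 CPM. *Prph*, the peripherin intermediate filament gene of neurons with long axons, was at 355 and 324 CPM against 10.1 and 11.7 CPM. Of the remaining ones, *Calca* encodes the neuropeptide CGRP, *Tnni3* cardiac troponin I and *Hapln1* a link protein of the extracellular matrix, and each was under 3 CPM in both inputs. In the ctrl IPs, 9 of these 10 genes had no enrichment.

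The exception was *Mmp9*, a matrix metalloproteinase gene. It was at 153 and 260 CPM in the Rpl22HA IPs and at 7.36 and 6.70 CPM in the inputs, a log2 fold change of 4.84 ± 0.23, but at 1764 and 1635 CPM in the ctrl IPs, where the fold change was 7.80. It belongs to 31 genes with a mean ctrl IP count of at least 50 and an untagged log2 fold change over 5. Of these, 29 were also enriched in the Rpl22HA IPs, where their level was a median of 18.9% of that in the ctrl IPs (range 10.7% to 43.6%). The untagged IPs had 2606 enriched (19.5%) and 2156 depleted genes (16.1%). Of the 1815 genes enriched with the tag, 523 (28.8%) were enriched without it too, which is 20.1% of the genes enriched without it, and 304 (16.7%) were depleted without it. The tagged change was higher than the untagged one for 2623 genes (19.6%) and lower for 2590 (19.3%), and it was higher for 932 of the 1815 enriched genes.

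Families of ion channel genes differed in how many members were enriched, beside 13.6% of all genes tested. All 9 voltage-gated sodium channel genes tested were enriched, with a median log2 fold change of 1.64, beside 1.35 in the untagged IPs. The auxiliary subunit gene *Scn4b* was at 49.6 and 29.5 CPM in the IPs against 4.42 and 1.91 CPM, and its untagged IPs lay below their inputs. The pore-forming subunit gene *Scn1a* was at 116 and 107 CPM against 18.9 and 17.2 CPM, but its untagged IPs also reached 103 and 79.97 CPM, and the difference between the fold changes did not pass the test (0.54, adjusted p = 0.13). Of 28 voltage-gated potassium channel genes tested, 12 were enriched and 2 depleted. *Kcns3*, a modifier subunit gene, was at 19.0 and 26.1 CPM in the IPs against 0.736 and 1.91 CPM, whereas *Kcna5* fell to 7.40 and 7.06 CPM from 79.3 and 70.6 CPM. *Kcnh7*, of the ERG channels, had a log2 fold change of 2.78, and of 2.04 in the untagged IPs. Voltage-gated calcium channel genes had 5 enriched of 23 tested, and 11 of the 23 were enriched without the tag. The tagged change was higher than the untagged one for 3 of the 23 and lower for 9.

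Receptor and transmitter genes were split by subunit, and their counts stand beside 13.6% enriched and 8.08% depleted of all genes tested. Nicotinic acetylcholine receptors had 5 enriched and 3 depleted genes of 9 tested. *Chrna6* was at 337 and 315 CPM in the IPs against 46.9 and 57.7 CPM, *Chrnb3* rose by 1.99 ± 0.18, *Chrna4* by 1.89 ± 0.19 and *Chrnb2* by 1.62 ± 0.16 on the log2 scale, while *Chrna2* fell by 3.18 from a level of 3.68 and 4.07 CPM in the inputs, a call that was lost without the second Rpl22HA lysate. The vesicular glutamate transporters separated in the same way. *Slc17a6* (VGLUT2), the form of ganglion cells, was at 223 and 206 CPM against 32.6 and 38.3 CPM, *Slc17a7* (VGLUT1), the form of photoreceptors and bipolar cells, was at 357 and 338 CPM against 551 and 449 CPM, under the fold threshold, and *Slc17a8* (VGLUT3), the form of an amacrine type, fell by 1.85 on the log2 scale, a call that was lost without the first Rpl22HA lysate. Of 16 ionotropic glutamate receptor genes tested 4 were enriched and 2 depleted, with a median of 0.39, beside 0.46 in the untagged IPs. *Grin3a* rose by 2.25 ± 0.24 and *Grik1*, a kainate receptor gene of OFF bipolar cells, fell by 1.99. GABA-A and glycine receptors had 2 enriched and 6 depleted genes of 19 tested, with a median of -0.34. *Gabrg3* rose by 2.14 ± 0.27 and *Gabrr1*, the rho subunit gene of bipolar cells, fell by 2.87. Neuropeptide genes had 6 enriched and 5 depleted of 16 tested, with *Tac1* (substance P) at 169 and 180 CPM against 47.1 and 45.0 CPM, and with *Penk*, *Pdyn* and *Vip*, which encode enkephalin, dynorphin and vasoactive intestinal peptide, falling by 3.55, 3.01 and 3.27. Without the tag 11 of the 16 were depleted, and *Penk* and *Pdyn* changed there by -3.52 and -2.71, with no difference that passed the test (edgeR adjusted p = 0.998 and 0.547).

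Of 34 genes for neurofilaments and the axonal cytoskeleton 22 were enriched and none was depleted, beside 13.6% and 8.08% of all genes tested, with a median log2 fold change of 1.56 and of -0.79 in the untagged IPs. *Uchl1*, a ubiquitin hydrolase gene of neurons, was at 1521 and 1394 CPM against 225 and 224 CPM. Among the axonal motors 4 of 29 were enriched, a share close to the 13.6% of all genes tested, and *Kif5a*, a kinesin heavy chain gene of neurons, rose by 2.02 ± 0.16. Synaptic vesicle release had 12 enriched and 4 depleted genes of 36. *Vamp1*, a vesicle SNARE gene, was at 562 and 517 CPM against 69.7 and 66.02 CPM, and the complexin gene *Cplx1* at 738 and 615 CPM against 113 and 118 CPM. Of 24 calcium-binding protein genes 10 were enriched and 3 depleted. *Pvalb*, the parvalbumin gene, was at 308 and 261 CPM against 22.3 and 21.8 CPM, and *Cabp5*, of bipolar cells, fell by 1.72. Of 27 genes tested for neurotrophic factor receptors and ligands 7 were enriched and 8 depleted, with a median of -0.15. In the untagged IPs 12 of the 27 were depleted. The growth factor genes *Fgf1* and *Igf1* on this list rose by 3.70 ± 0.18 and 2.15 ± 0.17 and *Igf2* fell by 2.49.

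Cone genes were enriched and rod genes were depleted. All 15 cone genes listed were tested and 13 were enriched, with a median log2 fold change of 2.90 in the Rpl22HA IPs and of -0.81 in the ctrl IPs, and the tagged change was higher than the untagged one for all 15. The summed level of the list was 21339 and 17837 CPM in the IPs, 3994 and 3886 CPM in the inputs, and 2047 and 2026 CPM in the ctrl IPs. Of 16 rod genes, 15 were depleted and none enriched (median -1.71). Here the untagged IPs were low as well, with a median of -1.19, and the tagged change was lower than the untagged one for 5 of the 16. The rod genes *Gngt1*, *Pde6g* and *Slc24a1* had log2 fold changes of -1.06, -1.06 and -1.27. Their calls were lost without the first Rpl22HA lysate. Cone genes not called were *Thrb*, a thyroid hormone receptor gene that opsin patterning needs, at 254 and 237 CPM against 193 and 197 CPM, and *Guca1a*, a guanylate cyclase activator gene that rods also use. *Kcne2*, a potassium channel subunit gene on the cone list, was at 662 and 621 CPM against 104 and 117 CPM. Of genes that rods and cones share, 3 of 19 were depleted and none enriched, with *Crx*, the photoreceptor homeodomain factor gene, at 690 and 678 CPM against 957 and 954 CPM.

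Cones and rods use different genes for the same steps of phototransduction. A cone gene can be set against its rod paralogue within a library, where a difference between genes does not move with the scaling. In 10 pairs of a cone gene and its rod paralogue, the log2 ratio of IP to input was higher for the cone gene in all 10, by 4.02 to 5.93 in lysate 1 and by 3.22 to 4.996 in lysate 2 (medians 4.54 and 3.91). *Pde6c* was in 2 of the pairs, and whether each gene of a pair is confined to its cell type was not tested. In the untagged lysates the same difference ran from -1.46 to 2.46 and from -1.06 to 1.98, with medians of 0.59 and 0.38, and was positive in 7 and 6 of the 10 pairs. Every pair had its larger difference in Rpl22HA lysate 1. Whether RNA of cones had a part in other changes described here was not tested. The short-wave opsin gene *Opn1sw* was at 7387 and 6072 CPM in the Rpl22HA IPs against 912 and 881 CPM in the inputs, and the middle-wave opsin gene *Opn1mw* at 2232 and 2151 CPM against 200 and 239 CPM. The transducin gene *Gnat2* of cones was at 2203 and 1789 CPM against 243 and 242 CPM, and *Gnat1* of rods at 3023 and 4021 CPM against 18653 and 17392 CPM. The smallest fall among the rod genes of the pairs was that of the arrestin gene *Sag*, from 8479 and 7078 CPM to 4940 and 4346 CPM (log2 fold change -0.74 ± 0.16), under the fold threshold. *Arr3*, the cone arrestin gene, was at 1604 and 1127 CPM against 136 and 120 CPM, but was also enriched without the tag, by 1.06.

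**Figure D3:**
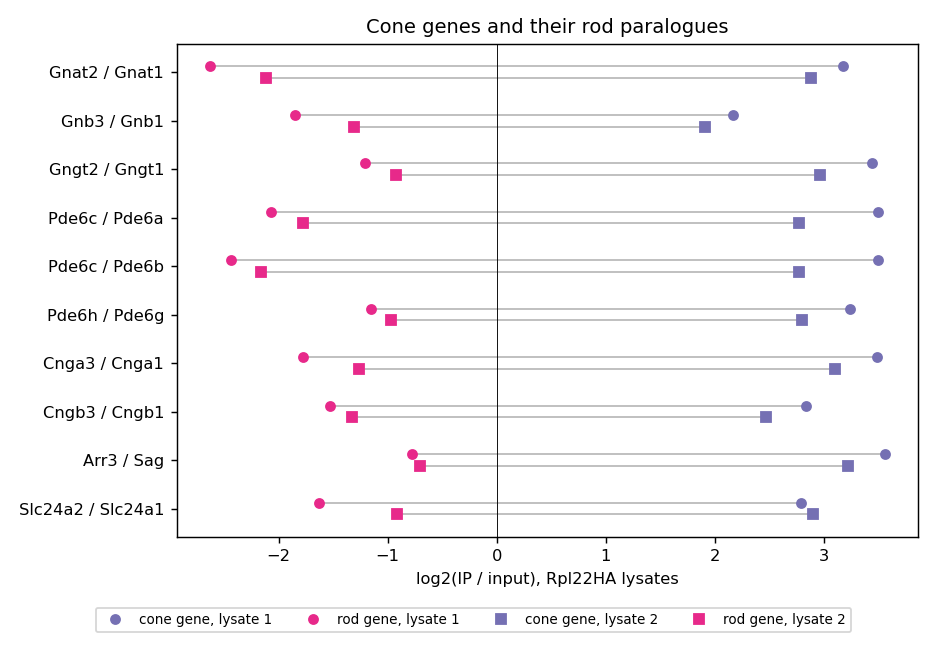
Log2 ratio of IP to input in the Rpl22HA lysates (x axis) for 10 pairs of a cone gene (purple) and its rod paralogue (pink), joined by a line, with circles for lysate 1 and squares for lysate 2. Every cone gene lies above 0 and every rod gene below 0 in both lysates.

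The sequences just before the transcription start of the arrestin genes and of the alpha subunit genes of the cyclic nucleotide-gated channel are shown, since in these 2 pairs the RefSeq start (GRCm38.p6) of both genes adjoins that of the tested transcript. Each is 250 bases long and given 5′ to 3′ on the gene's strand, with capitals for the core recognised by CRX, TAATCC or its reverse complement GGATTA. The windows are chrX:100605247-100605496 (plus strand) for *Arr3*, chr1:87803430-87803679 (plus) for *Sag*, chr1:37218955-37219204 (plus) for *Cnga3* and chr5:72642753-72643002 (minus) for *Cnga1*.
Arr3: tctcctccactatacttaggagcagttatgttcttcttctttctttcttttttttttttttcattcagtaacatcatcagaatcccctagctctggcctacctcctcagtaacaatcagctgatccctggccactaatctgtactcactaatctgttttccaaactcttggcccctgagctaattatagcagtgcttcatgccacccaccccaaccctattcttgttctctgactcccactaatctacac
Sag: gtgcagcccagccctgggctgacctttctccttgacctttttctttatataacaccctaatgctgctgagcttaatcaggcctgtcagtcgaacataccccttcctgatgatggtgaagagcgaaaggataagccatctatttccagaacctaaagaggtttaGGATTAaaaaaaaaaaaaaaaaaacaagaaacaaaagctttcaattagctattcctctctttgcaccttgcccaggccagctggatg
Cnga3: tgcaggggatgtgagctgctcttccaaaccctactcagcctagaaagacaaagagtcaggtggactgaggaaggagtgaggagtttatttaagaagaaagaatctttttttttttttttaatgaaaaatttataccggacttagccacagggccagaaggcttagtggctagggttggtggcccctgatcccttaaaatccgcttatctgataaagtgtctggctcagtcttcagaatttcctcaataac
Cnga1: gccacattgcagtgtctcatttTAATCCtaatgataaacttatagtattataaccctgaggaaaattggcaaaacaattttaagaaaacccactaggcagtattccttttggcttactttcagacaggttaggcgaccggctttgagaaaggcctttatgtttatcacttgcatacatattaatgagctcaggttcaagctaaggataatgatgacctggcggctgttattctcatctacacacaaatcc
In these windows the rod genes *Sag* and *Cnga1* held the core once each, starting 87 and 228 bases before the start, and the cone genes *Arr3* and *Cnga3* did not hold it. Over all genes of the pairs, windows were found for 5 of 9 cone genes and 7 of 10 rod genes, and the core stood in 1 of 7 cone windows and in 4 of 7 rod windows. The cone window was that of *Gnat2*, with the core starting 19 bases before the start. The windows of *Slc24a2* and *Slc24a1*, a further pair, did not hold it. Windows on 1 chromosome were left out, for the genes of the pairs as for all genes. Of the 32851 promoter windows of this length that were used, 6.25% held the core. A match is a description of letters and not of a bound site. *Cnga3* was at 40.4 and 36.3 CPM in the IPs against 3.19 and 3.83 CPM, and *Cnga1* at 309 and 428 CPM against 1061 and 1025 CPM.

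Amacrine and bipolar cell genes and those of Müller glia were mostly depleted, while the horizontal cell list was split. Of 16 amacrine genes listed 14 were tested and 12 were depleted, with none enriched and a median log2 fold change of -2.61. *Slc6a9*, the glycine transporter gene GlyT1, was at 34.8 and 36.1 CPM in the IPs against 259 and 254 CPM in the inputs, and *Tfap2b*, a transcription factor gene of amacrine cells, at 18.0 and 23.5 CPM against 109 and 107 CPM. In the ctrl IPs *Slc6a9* was at 81.0 and 73.6 CPM and *Tfap2b* at 59.3 and 57.0 CPM, between the tagged IPs and the inputs. *Slc32a1*, the vesicular GABA and glycine transporter gene, fell by 3.59 and *Gad1*, which encodes a GABA-synthesising enzyme, by 2.85, whereas *Gad2* was at 10.3 and 8.79 CPM against 15.2 and 13.9 CPM and did not pass the test. Of the cholinergic genes of starburst cells, *Slc18a3* was at 2.35 and 1.41 CPM against 27.7 and 19.6 CPM, and *Chat* at 0.504 and 0.157 CPM against 9.33 and 5.50 CPM. Of 16 bipolar genes 12 were depleted (median -1.82), among them *Scgn* and *Gng13*, which fell by 3.18 and 2.56. *Grm6*, the ON bipolar glutamate receptor gene, fell by 1.01 and kept its call in 16 of 27 other settings. The horizontal cell list had 3 enriched and 2 depleted of 9 tested. Its enriched *Calb1*, the calbindin gene that some ganglion and amacrine cells also use, was at 429 and 458 CPM against 131 and 117 CPM.

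All 17 Müller glia genes were depleted, with a median of -2.87, beside 14 of 17 without the tag (median -1.73). *Rlbp1*, which encodes the retinaldehyde-binding protein CRALBP, was at 38.7 and 53.4 CPM in the IPs against 729 and 761 CPM in the inputs and at 89.0 and 63.2 CPM in the ctrl IPs. *Glul*, the glutamine synthetase gene, was at 79.2 and 97.0 CPM against 887 and 972 CPM, and *Apoe*, the apolipoprotein E gene, fell by 3.58. Microglia had 7 depleted of 9 tested, vascular cells 10 of 11, the pigment epithelium 8 of 10 and lens-type crystallins 10 of 10, with none enriched in any of these lists. Without the tag 7, 5, 5 and 8 members were depleted, in the same order. The tagged change was lower than the untagged one for 1, 4, 1 and 2 members and higher for 1, 1, 0 and 0. Many of these genes had few counts. Without the second Rpl22HA lysate 4 microglial and 6 vascular genes were depleted, and with a mean count of at least 50 required none of the microglial and 2 of the vascular genes were. The crystallins had 3 to 6 depleted genes when single Rpl22HA libraries were left out of a fit with no block. Whether reads shared between similar members of this list had a part in this was not tested. Among astrocyte genes *Gfap* fell by 2.87, but *S100b*, which neurons with large axons also express, was at 91.0 and 81.0 CPM against 12.5 and 9.09 CPM. Among the 10 largest falls under the rule were *Rlbp1*, *Plpp3*, *Trf*, *mt-Cytb*, *C1ql2*, *Tacr3*, *Slc18a3*, *Shisa8* and *Slc32a1*, from -4.03 to -3.59, and each of these was also depleted in the ctrl IPs.

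**Figure D4:**
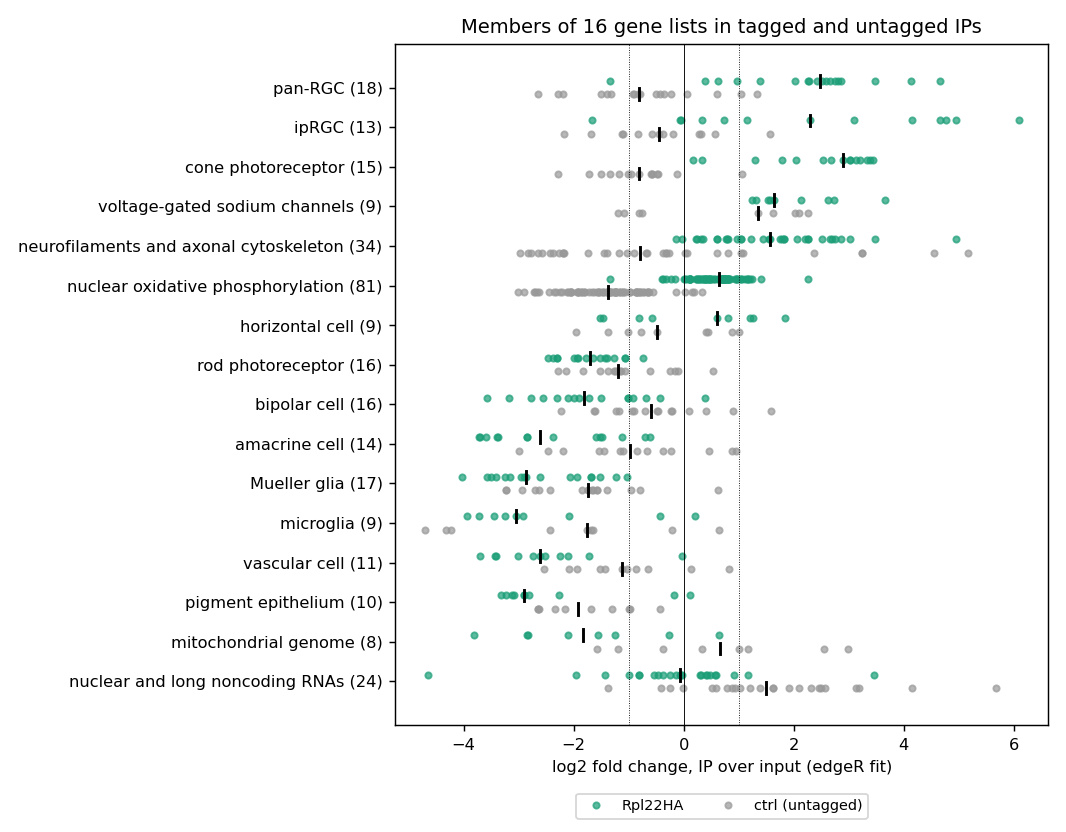
Log2 fold change of IP over input (x axis) for the tested members of 16 gene lists, in the Rpl22HA lysates (green) and the ctrl lysates (grey), with black ticks for the medians and dotted lines at 1 and -1. With the tag, the medians of the pan-RGC (2.47) and cone lists (2.90) lie to the right, and those of Müller glia (-2.87) and amacrine cells (-2.61) to the left.

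RNA classes that no cell type owns moved apart from each other. Of 13 protein genes of the mitochondrial genome 8 were tested and 6 were depleted, with a median log2 fold change of -1.82. Their summed level was 9974 and 16448 CPM in the Rpl22HA IPs against 53683 and 55875 CPM in the inputs. In the ctrl IPs it was 66405 and 81087 CPM, above the 54142 and 51993 CPM of their inputs, and all 8 genes were lower with the tag than without it by the test of the difference. *mt-Cytb*, a subunit gene of complex III, fell furthest, from 18099 and 18495 CPM to 1006 and 1678 CPM. *mt-Co1* was at 2670 and 4689 CPM against 14688 and 15531 CPM, and *mt-Nd5* at 1302 and 1591 CPM against 1744 and 1706 CPM, under the threshold. The nuclear genes of oxidative phosphorylation are read by cytosolic ribosomes. Of 81 tested, 11 were enriched, the same share as the 13.6% of all genes tested, and 1 was depleted. The median was 0.65 against -1.38 without the tag, and 74 of the 81 were higher with the tag than without it. The count of enriched members was 3 with upper quartile scaling, 7 when the 4 Rpl22HA libraries were fitted alone and 52 with no fold threshold. The depleted member, *Cox6b2*, is a testis-type subunit gene at 1.85 and 2.04 CPM in the IPs against 4.42 and 5.50 CPM, a call that was lost without either lysate. *Atp5g1*, an ATP synthase subunit gene, was at 178 and 158 CPM in the IPs against 68.0 and 58.4 CPM, and at 27.8 and 29.9 CPM in the ctrl IPs against 92.3 and 73.2 CPM.

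The proteasome had 8 enriched genes of 36 and glycolysis 7 enriched and 2 depleted of 22, beside 13.6% and 8.08% of all genes tested. In the untagged IPs 15 of the 36 and 15 of the 22 were depleted, with medians of -0.82 and -1.73. *Psmb7* rose by 1.67 ± 0.15. Upper quartile scaling left 2 enriched proteasome and 3 enriched glycolysis genes. *Tpi1* and *Aldoc*, of the enzymes triose phosphate isomerase and aldolase C, were at 3516 and 3328 CPM and at 2573 and 2570 CPM in the IPs against 865 and 913 CPM and 828 and 811 CPM. *Slc2a1*, the glucose transporter gene GLUT1, fell by 1.40. Of 83 cytosolic ribosomal protein genes 4 were depleted, *Rpl10a* and *Rps14* among them, a share below the 8.08% of all genes tested. None was enriched (median -0.18), and 13 were depleted with upper quartile scaling. In the untagged IPs 3 of the 83 were enriched and 23 depleted, with a median of -0.58. Of 24 long noncoding RNAs tested 2 were enriched and 4 depleted, with a median of -0.07, and without the first Rpl22HA lysate 1 was depleted. In the untagged IPs 15 of the 24 were enriched (median 1.51), and 19 were lower with the tag than without it. *Snhg14*, a host transcript of small nucleolar RNAs, was at 13.6 and 30.6 CPM in the Rpl22HA IPs against 1.96 and 1.91 CPM, and at 50.7 and 69.5 CPM in the ctrl IPs. Its log2 fold change was 3.47 with this transcript and 1.05 with the one of the highest mean count over all 8 libraries. *Malat1*, a nuclear RNA, was at 1018 and 959 CPM in the Rpl22HA IPs and 3646 and 1950 CPM in the inputs, and at 6420 and 5422 CPM in the ctrl IPs. *Xist*, which silences the inactive X chromosome, had 17.2 and 24.5 CPM in the Rpl22HA IPs, 8.84 and 9.57 CPM in their inputs and 248 and 368 CPM in the ctrl IPs, where it is not separable from the Y-linked counts given above.

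**Figure D5:**
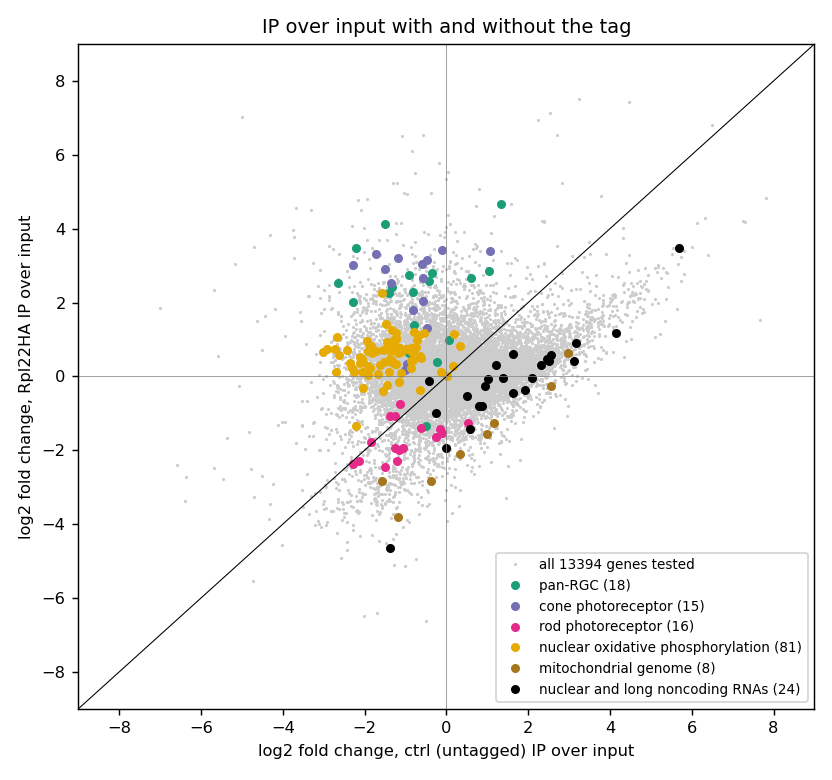
Log2 fold change of IP over input in the ctrl lysates (x axis) and the Rpl22HA lysates (y axis) for all 13394 genes tested (grey) and 6 lists (coloured), with the line of equal change. Most ganglion cell genes and all 15 cone genes lie above the line, most long noncoding RNAs and the 8 genes of the mitochondrial genome below it, and most nuclear oxidative phosphorylation genes to the left of 0.

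In GENCODE M21, where 13355 of the tested transcripts were found, the median length was 3229 bases for enriched and 2972.5 bases for depleted genes beside 3089 bases for all, and the GC content was 49.7%, 51.7% and 50.2%. Genes enriched without the tag were longer, with a median of 4409 bases, and those depleted without it shorter, with 2175 bases. The 523 genes enriched both with and without the tag had a median of 5401 bases. Among 2670 genes with transcripts of at least 5108 bases the median log2 fold change was 0.27 with the tag and 0.77 without it, and among 2673 genes of at most 1725 bases it was 0.33 and -0.42. With the tag, 19.1% of the long and 15.5% of the short group were enriched, against 10.3% of 2671 genes with transcripts of 2624 to 3638 bases. Of the enriched genes 91.3% were protein coding, as were 92.8% of all genes tested. Whether transcript length had a part in any change described above was not tested.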

How the data were processed

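Ribosome-bound and total RNA of mouse retina was measured with Smart-seq3 libraries. The authors sequenced them with short paired-end reads, aligned them to mm10 with the Smart-seq3 pipeline, and deposited raw counts, whole numbers per Ensembl transcript with no normalisation. No source used here names the annotation release. The second deposited table, of Brn3bWT and Brn3bcKO IPs, was not used.

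From the counts, each of 47454 symbols was reduced to 1 transcript, that of the largest mean count in the 4 Rpl22HA libraries, since transcripts of a gene share reads. filterByExpr kept 13394 genes. edgeR 4.0.16 (R 4.3.3) with TMM scaling was fitted to the 8 libraries of the table with the lysate as a block and an IP effect for each group (2 residual degrees of freedom, common biological coefficient of variation 0.12). This departs from the study's pair-wise tests. Benjamini-Hochberg adjustment ran over all genes tested, and the 2 replicates give no measure of spread beyond these lysates. IP and input of a replicate are from the same lysate. Their deviations from the group means correlated with r = 0.05 (Rpl22HA) and r = 0.12 (ctrl). Log2 ratios per lysate used a prior count of 2.

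On simulated data for this comparison, with 13394 genes and 200 changed, all 50 genes were recovered at each log2 change of 2, -2, 3 and -3, and 4 unchanged genes were called. The changed genes were drawn from those with a mean input level of at least 10 CPM, and no IP effect was given to any other gene. Calls of genes at lower levels or near the fold threshold were therefore not covered. Genes were named by rule: 6 markers, the 10 largest changes per direction with a mean count of at least 50 and no overlap, up to 4 members of each of 61 lists with the smallest p, and the photoreceptor pairs. Some genes the rule names are not reported here. Any other gene named was picked with its values in view. The members and lists were chosen with earlier results of these data known. Positions are from GENCODE M21 (99.7% of tested transcripts matched). Other scalings, filters, transcript choices, DESeq2 1.42.0 and leaving out each library were tried.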

Additional observations from a re-analysis of the deposited data

Results flagged for a closer look

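The change from input to IP was tested for a difference between the Rpl22HA and the ctrl lysates. It was higher with the tag for 2623 genes and lower for 2590. All 304 genes that were enriched with the tag and depleted without it passed this test, as did all 27 that were depleted with it and enriched without it. Both sets were chosen for called changes of opposite sign in the same fit, so this outcome was close to fixed beforehand. Of the 523 genes enriched in both, 244 were enriched less with the tag. Among the largest enrichments the difference of the log2 fold changes, Rpl22HA minus ctrl, was 6.93 for *Tbx20*, 5.96 for *Tmem255b*, 5.48 for *Ctxn3*, 6.46 for *Spp1*, 6.54 for *Calca*, 4.28 for *1700011I03Rik*, 5.98 for *Prph*, 5.90 for *Tnni3* and 6.75 for *Hapln1*, and it was -2.97 for *Mmp9*. Among the largest falls it was -1.08 for *Plpp3*, -2.62 for *mt-Cytb*, -1.24 for *C1ql2*, -1.47 for *Slc18a3* and -1.44 for *Shisa8*.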

How the results depend on the processing

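Under 27 other settings 19 of the largest changes, all that were examined, kept their calls, and 127 of 146 called genes examined singly did so wherever they were tested. *Guca1a*, not called, turned from 0.16 to -0.068 with upper quartile scaling. Without the replicate block 1803 genes were enriched and 1055 depleted. Requiring a mean count of at least 50 left 1207 enriched and 592 depleted genes, and with no fold threshold there were 3628 and 2023 (and 3596 depleted in the ctrl IPs). DESeq2 gave 1245 and 997. Leaving out 1 library at a time, with or without the block, gave 1176 to 1954 enriched and 646 to 1427 depleted genes, the lowest without the second Rpl22HA IP (1176) and without the first Rpl22HA lysate (646). For the ctrl IPs it gave 2172 to 2741 and 1763 to 2348, and for the difference 2127 to 2790 higher and 1555 to 3001 lower genes, the lowest again without the first Rpl22HA lysate. With the block, leaving out one library also removes its partner, so that 1 lysate of that group remains and is assumed to vary like the other group. *Trpc7*, which passed no test, ran from -0.43 to 0.16 beside -0.07, and was above 0 in 4 of these fits. With 2 lysates per group and few counts, a change of *Trpc7* near the fold threshold may not have been detectable at this depth.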
